A study of Homo sapiens with 8 samples.

Results

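The genes described here are 7 complement regulators and receptors: CD55, CD46, CD59, CR1, C3AR1, C5AR1 and CFP. Every probe set that the array annotation assigns to one of these symbols was taken, which gave 16 of the 22277 probe sets: 2 for CD55, 3 for CD46, 4 for CD59, 4 for CR1 and 1 each for C3AR1, C5AR1 and CFP. Membership has no threshold on a value. The group as such was chosen by function with the log2 differences of these same arrays in view, both diclofenac against DMSO and between the lines. Those differences are therefore given as a description, and no p-value below is independent support for the choice.

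Complement is a cascade of blood proteins in which enzymes called C3 and C5 convertases mark a surface, release the small peptides C3a and C5a, and can end in a pore, the membrane attack complex. Blood cells protect themselves with membrane proteins that limit the convertases (CD55, CD46, CR1) or block the pore (CD59). Myeloid cells also read complement through the receptors for C3a and C5a (C3AR1, C5AR1) and make properdin (CFP), which stabilises the convertase of the alternative pathway.

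RNA was measured on 8 Affymetrix human arrays, 2 per group, in a pair of human leukemia cell lines grown in RPMI-1640 medium with serum. THP-1, labelled a monocytic leukemia line, and HL-60, labelled a promyelocytic one, each received 100 µM diclofenac, a cyclooxygenase inhibitor, or the solvent DMSO, for 48 h. The groups are therefore THP-1 with diclofenac, THP-1 with DMSO, HL-60 with diclofenac and HL-60 with DMSO, and the DMSO cells are the controls within each line. Each group stands for 1 established line. The arrays are titled as biological replicates, and the labels do not say whether they came from separate cultures, so the p-values measure the spread between these arrays, which may in part be technical. The series addresses how the drug acts on leukemia cells, with AP-1 transcription factors named in its title.

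Of the 8 arrays, THP-1 DMSO replicate 2 was unlike the rest. Its median intensity was 241, against 110 to 150 on the others, and its bacterial control probe sets, which have no target in human RNA, had a median of 78, against 5.6 to 24.6. Background, taken as the 95th percentile of those controls, was 239 on that array and 33.2 to 60.2 on the others. The array correlated with its fellow replicate at 0.898 across probe sets, against 0.977 to 0.984 within the other groups. Member differences that rest on the THP-1 DMSO arrays are therefore also given without it. The fit takes a common spread from all groups, so this array also enters the standard errors and p-values of comparisons that do not use it. Those p-values are thus not a measure of the compared groups alone. Leaving out any array leaves its group with a single array, which adds nothing to the estimate of spread. Without THP-1 DMSO replicate 1, that single array is the one that stands apart. Calls and p-values of such runs show dependence on single arrays and are not separate support. Lineage markers did not settle the labelled types. Of 9 monocyte genes measured, 3 were called higher and 0 lower in THP-1 than in HL-60, with diclofenac and with DMSO alike. Of all genes, 16% and 18.6% were called in these comparisons (diclofenac, DMSO). The monocyte genes had 8 of 9 differences above 0 with diclofenac and 6 of 9 with DMSO. HLA-DRA, an antigen-presenting molecule of monocytes, had 561.2 and 546.5 in THP-1 with diclofenac, 554.4 and 539.3 in THP-1 with DMSO, 4.5 and 5.6 in HL-60 with diclofenac and 44.1 and 52.2 in HL-60 with DMSO. The 5 promyelocyte granule genes summed to 43403 to 45703.5 and 37667.8 to 53299 in the THP-1 groups (diclofenac, DMSO) and to 28096.4 to 33356.8 and 31923.4 to 32623.8 in the HL-60 groups, so their sum was not lower in THP-1. One of them, CTSG, was called lower in THP-1 in both line comparisons, while 2 were called higher with diclofenac and 3 with DMSO. Of 4 fibroblast and epithelial markers, COL3A1, EPCAM and KRT19 were above background on no array and COL1A1 on all 8, at 43.6 to 336.6. HBB, a globin of red cells, was above background on all 8 as well, at 132.4 to 423.9.

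Of the 16 probe sets, 6 were above background on all 8 arrays, 9 on 1 to 7 arrays, and 1, a CD59 probe set, on none. Intensities are given as deposited, on a linear scale set separately on each array. Levels and differences are on a log2 scale, log2 of intensity plus 50 after quantile normalization, which gives all arrays the same distribution. Differences come from limma, fitted over all 22215 probe sets that are not controls, with the moderated standard error (SE) and a p-value adjusted by Benjamini-Hochberg over all of them at a threshold of 0.05. Only 2 arrays per group limit the precision.

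With diclofenac, the members that differed most were CD55, C5AR1 and C3AR1 in THP-1, at 1.26, 1.42 and 1.67 log2 units above DMSO, and 1 probe set each of CD55 (0.78) and CR1 (1.03) in HL-60. With THP-1 DMSO replicate 2 left out, CD55, C5AR1 and C3AR1 were at 1.09, 1.40 and 0.66. In bulk RNA such a difference does not tell a change in the share of cells of a type from a change in RNA per cell. None of the 16 probe sets passed the adjusted threshold for diclofenac in either line. In THP-1, 0 of 16 passed in limma and 5 had an unadjusted p under 0.05, all higher, where 0.135% of all probe sets passed the adjusted threshold and 5.45% were higher at an unadjusted p under 0.05. In HL-60 the count was again 0 of 16, with 2 higher at an unadjusted p under 0.05, where the shares of all probe sets were 0.0045% and 2.38%. Arrays did not overlap for 7 higher and 2 lower members in THP-1, where 18.7% and 20.9% of all probe sets were so placed. HL-60 had 5 higher and 2 lower, beside 20.1% and 19.1%. The members' median difference was 0.36 in THP-1 and 0.03 in HL-60, against medians of -0.02 and 0.00 over all probe sets, and the THP-1 value was 0.14 without THP-1 DMSO replicate 2. Leaving out 1 THP-1 DMSO array decided the THP-1 count. Without replicate 1, 9 members and 6892 of all probe sets passed, and without replicate 2, 1 member and 60 of all.

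**Figure D1:**
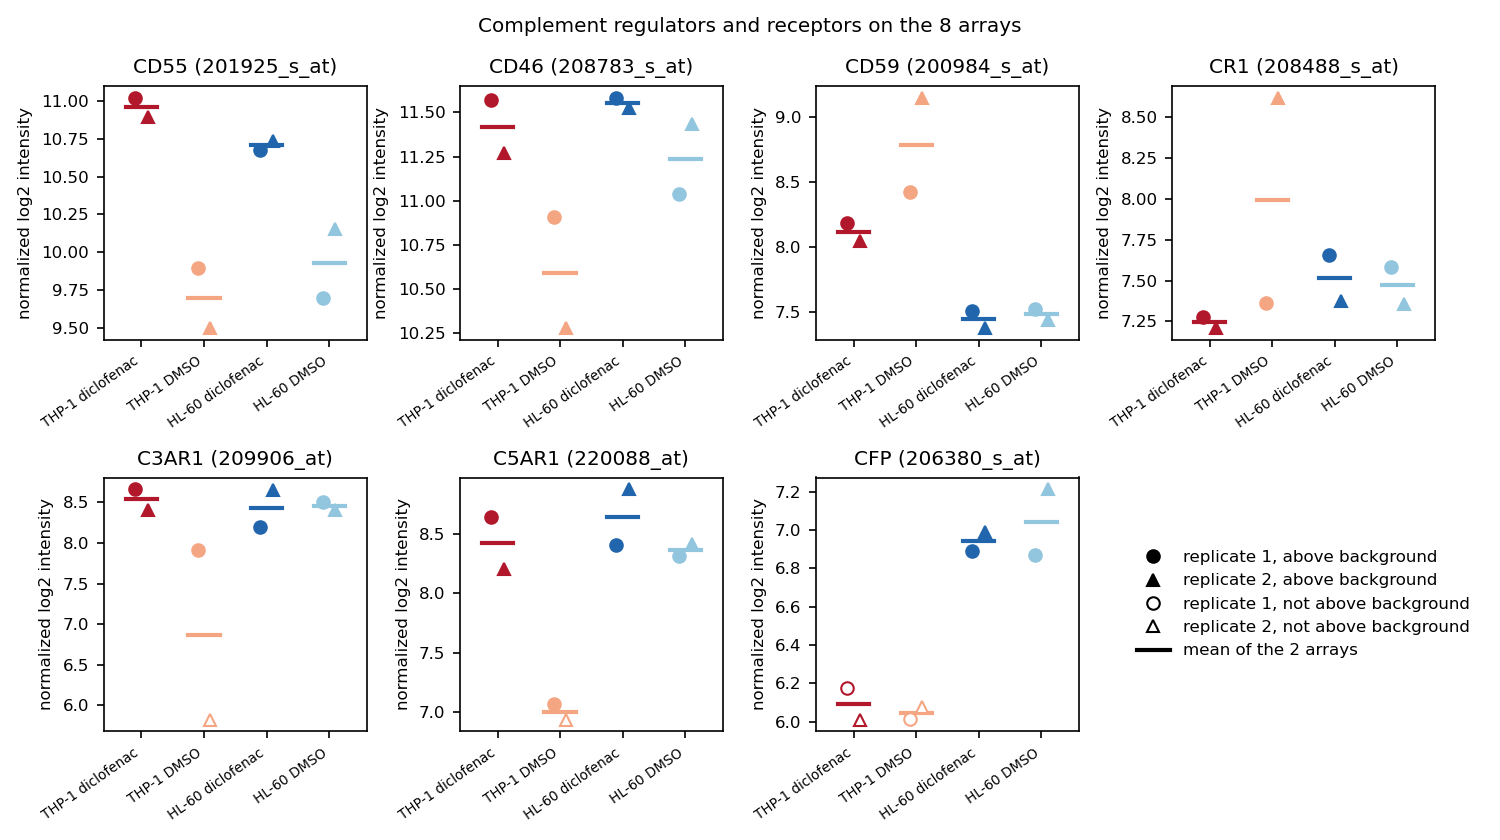
Normalized log2 intensity (vertical axis) of 1 probe set per gene on each array, by group; circles and triangles are replicates 1 and 2, open symbols lie at or under background, and bars are means of the 2 arrays. CD55 lies higher in both diclofenac groups than in both DMSO groups, C5AR1 and C3AR1 are lowest in THP-1 with DMSO, CD59 is higher in both THP-1 groups, and CFP is above background on the HL-60 arrays alone.

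CD55, the decay-accelerating factor, is held in the membrane by a glycosylphosphatidylinositol (GPI) anchor and speeds the breakdown of C3 and C5 convertases. Its probe set 201925_s_at had intensities of 2088.2 and 1901.6 in THP-1 with diclofenac, against 896.3 and 697.2 in THP-1 with DMSO. HL-60 had 1623.3 and 1674 with diclofenac, against 791.6 and 1100.7 with DMSO. All 4 diclofenac arrays were higher than all 4 DMSO arrays. The normalized level was 10.96 ± 0.09 and 9.70 ± 0.28 in THP-1 (diclofenac, DMSO) and 10.71 ± 0.04 and 9.93 ± 0.32 in HL-60 (SD, n = 2 each). The order of the groups was thus THP-1 with diclofenac, HL-60 with diclofenac, HL-60 with DMSO and THP-1 with DMSO, with overlapping arrays between the last pair.

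In THP-1 the CD55 difference, diclofenac minus DMSO, was 1.26 ± 0.18 (SE, 2.40-fold), with an adjusted p of 0.0588 in limma, just short of the threshold. It was 1.09 without THP-1 DMSO replicate 2 and 1.45 without replicate 1. The deposited scale without quantile normalization, on which the median of all probe sets was -0.205, gave 1.28 with an adjusted p of 0.0168, and an offset of 16 in place of 50 gave 1.30 with 0.0496. Median centring, under which that median was 0.149, gave 1.63 with 0.579. The median of all was -0.016 as reported. The direction of the CD55 difference thus held between these settings, with sizes from 1.09 to 1.63, while its side of the threshold did not.

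The second CD55 probe set, 201926_s_at, had 1281.3 and 1170.6 in THP-1 with diclofenac, against 594.3 and 491.5 with DMSO. Its log2 difference was 1.18 ± 0.19 (adjusted p 0.0805), 0.95 without THP-1 DMSO replicate 2 and 1.42 without replicate 1. Both CD55 probe sets thus gave nearly the same difference in THP-1. In HL-60 they did not: 201925_s_at differed by 0.78 ± 0.18 (adjusted p 0.657), while 201926_s_at had 663.5 and 679.7 with diclofenac, against 603.8 and 573.2 with DMSO, a difference of 0.21 ± 0.19 (adjusted p 1). The HL-60 difference of 201925_s_at was 0.56 without DMSO replicate 1 and 1.00 without DMSO replicate 2.

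Whether the lines responded differently was tested as the difference of the 2 responses, THP-1 minus HL-60. For CD55 it was 0.48 ± 0.26 by 201925_s_at (95% interval -0.12 to 1.07, adjusted p 0.761; 0.28 without THP-1 DMSO replicate 2) and 0.97 ± 0.27 by 201926_s_at (0.37 to 1.58, adjusted p 0.495; 0.74 without that array). No member passed this test in limma (0 of 16, with 2 higher at an unadjusted p under 0.05, where 0.0045% of all probe sets passed and 3.62% were higher at an unadjusted p). Without THP-1 DMSO replicate 1 the count was 6 of 16, with 4042 of all probe sets. A larger response in THP-1 was therefore not shown for CD55. Between the lines themselves, 201926_s_at was higher in THP-1 with diclofenac than in HL-60 with diclofenac by 0.79 ± 0.19 (adjusted p 0.0264), and 201925_s_at by 0.25 ± 0.18 (adjusted p 0.534). The call for 201926_s_at was lost when any one of the 6 arrays other than the THP-1 DMSO pair was left out (adjusted p 0.0536 to 0.203). With DMSO the lines differed by -0.19 ± 0.19 and -0.23 ± 0.18, and their arrays overlapped. Without THP-1 DMSO replicate 2 these were 0.07, with the sign turned, and -0.03.

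**Figure D2:**
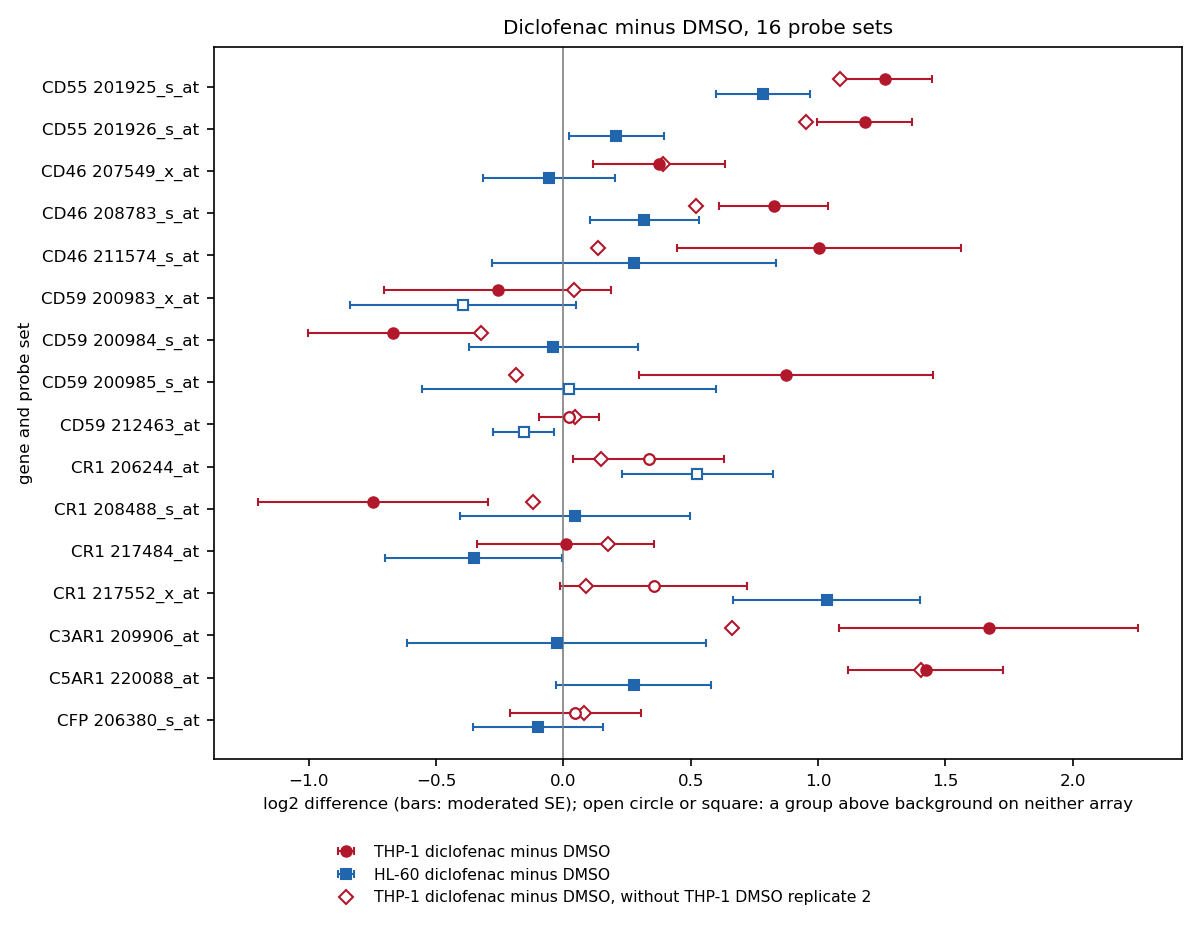
Log2 difference, diclofenac minus DMSO (horizontal axis), of the 16 probe sets in THP-1 (circles) and HL-60 (squares), with moderated SE as bars; diamonds give THP-1 without DMSO replicate 2, and open circles and squares are fitted values with a group above background on neither array. Both CD55 probe sets and C5AR1 stay above 0.9 in THP-1 without that array, while C3AR1 drops to 0.66 and the CD46 probe set 211574_s_at to 0.14.

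CD46, the membrane cofactor protein, lets the protease factor I cut C3b and C4b on the cell's own surface. The probe set 208783_s_at had 3077.5 and 2518.3 in THP-1 with diclofenac, against 1951.5 and 1107.8 in THP-1 with DMSO. In HL-60 it had 3113.9 and 2967.5 with diclofenac, against 2008.3 and 2821.8 with DMSO. Within each line both diclofenac arrays were the higher ones, and the DMSO pairs were spread widely. Normalized levels were 11.42 ± 0.21 and 10.59 ± 0.44 in THP-1 (diclofenac, DMSO) and 11.55 ± 0.04 and 11.24 ± 0.28 in HL-60 (SD, n = 2 each), so that the diclofenac groups and HL-60 with DMSO lay within 0.32 of each other and THP-1 with DMSO was lowest.

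The CD46 difference with diclofenac in THP-1 was 0.83 ± 0.21 (adjusted p 0.286), and it was 0.52 without THP-1 DMSO replicate 2 and 1.13 without replicate 1. In HL-60 it was 0.32 ± 0.21 (adjusted p 1). The difference between the responses was 0.51 ± 0.30 (adjusted p 0.77), and 0.20 without THP-1 DMSO replicate 2. The lines, THP-1 minus HL-60, differed by -0.14 ± 0.21 with diclofenac and by -0.64 ± 0.21 with DMSO (adjusted p 0.0816), or -0.34 without that array. None of these passed the threshold.

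The other CD46 probe sets were dimmer and followed less closely. 207549_x_at, which may bind further transcripts, had 243.9 and 353.8 in THP-1 with diclofenac and 199.8 and 336.8 with DMSO, a log2 difference of 0.38 ± 0.26 (adjusted p 0.559), and 0.39 without THP-1 DMSO replicate 2. In HL-60 it had 395.6 and 289.5 with diclofenac and 363.2 and 383.5 with DMSO, a difference of -0.06 ± 0.26 that was 0.04 under median centring. 211574_s_at had 133.1 and 195.9 in THP-1 with diclofenac and 132.7 and 45.2 with DMSO, the last value not above background. Its difference of 1.00 ± 0.56 (adjusted p 0.51) came down to 0.14 without that array, THP-1 DMSO replicate 2. HL-60 gave 200.3 and 258.6 with diclofenac and 172.4 and 221.5 with DMSO for this probe set, which overlap.

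CR1, the receptor for C3b and C4b, clears coated particles and also acts as a cofactor for factor I. Its probe set 208488_s_at had 97.5 and 83.3 in THP-1 with diclofenac, 94.3 and 433.3 in THP-1 with DMSO, 135.5 and 96.9 in HL-60 with diclofenac and 161 and 99.8 in HL-60 with DMSO. The array that stands apart, THP-1 DMSO replicate 2, gave the one high value, and the other 7 arrays lay between 83.3 and 161. The THP-1 difference was -0.75 ± 0.45 (adjusted p 0.525) with that array and -0.12 without it. HL-60 gave 0.05 ± 0.45, which turned to -0.11 on the deposited scale. With DMSO the line difference, THP-1 minus HL-60, was 0.52 ± 0.45 with that array and -0.11 without it.

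CR1 was also read by 217484_at, with 75.5 and 99.9 in THP-1 with diclofenac, 65.8 and 218.5 in THP-1 with DMSO, 111.2 and 91.6 in HL-60 with diclofenac and 189 and 146.4 in HL-60 with DMSO. Both HL-60 diclofenac arrays were below both HL-60 DMSO arrays, with a log2 difference of -0.35 ± 0.35 (adjusted p 1). Another probe set, 217552_x_at, which may bind further transcripts, had 24.9 and 30 in THP-1 with diclofenac, 20.6 and 22.6 in THP-1 with DMSO, 193.8 and 138.9 in HL-60 with diclofenac and 44.3 and 83.9 in HL-60 with DMSO. It was above background on no THP-1 array. Its diclofenac difference in HL-60 was 1.03 ± 0.37 (adjusted p 0.932), 0.68 without DMSO replicate 1 and 1.39 without DMSO replicate 2. With diclofenac it was at least 2.26-fold lower in THP-1 than in HL-60 (adjusted p 0.03), a bound because THP-1 was not above background. Such a bound raises the dim group to the lowest level above background and carries no sampling error, so "at least" refers to background alone. That call was lost when any one of the 4 diclofenac arrays was left out (adjusted p 0.103 to 0.206), and with an offset of 16 (adjusted p 0.0614). The remaining CR1 probe set, 206244_at, was above background on 1 array alone, HL-60 diclofenac replicate 2, at 88.4. The diclofenac differences of the 4 CR1 probe sets had no common direction in either line. With diclofenac all 4 had lower fitted levels in THP-1 than in HL-60, of which 217552_x_at alone passed the threshold.

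CD59, or protectin, is GPI-anchored like CD55 and stops the membrane attack complex from being completed. Its probe set 200984_s_at had 229.3 and 193.3 in THP-1 with diclofenac, against 264 and 574.7 in THP-1 with DMSO. HL-60 had 116.2 and 97.2 with diclofenac, against 153.1 and 109.3 with DMSO. All 4 THP-1 arrays were above all 4 HL-60 arrays. Normalized levels were 8.12 ± 0.10 and 8.79 ± 0.51 in THP-1 (diclofenac, DMSO) and 7.45 ± 0.09 and 7.49 ± 0.06 in HL-60 (SD, n = 2 each), and the HL-60 groups overlapped.

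With DMSO, CD59 was higher in THP-1 than in HL-60 by 1.31 ± 0.33 (2.47-fold, adjusted p 0.0308) by 200984_s_at and by 0.99 without THP-1 DMSO replicate 2 (adjusted p 0.0431). The probe set 200983_x_at, which may bind further transcripts, was higher by 1.75 ± 0.45 (adjusted p 0.0309), and by 1.48 without that array (adjusted p 0.0663). With diclofenac 200984_s_at differed by 0.68 ± 0.33 (adjusted p 0.287). The same comparison for 200983_x_at gave at least 2.76-fold higher in THP-1 (adjusted p 0.0248), a bound because no HL-60 diclofenac array was above background. Single arrays decided these calls. 200984_s_at with DMSO passed only with both HL-60 DMSO and all 4 diclofenac arrays kept (adjusted p 0.0666 to 0.146 without one of them). 200983_x_at with DMSO was lost without HL-60 DMSO replicate 2 (adjusted p 0.197) or any one diclofenac array (0.0631 to 0.0722), and with diclofenac without any one diclofenac array (0.107 to 0.175).

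Intensities of CD59 200983_x_at were 216.1 and 232.8 in THP-1 with diclofenac, 202.8 and 461.1 in THP-1 with DMSO, 30.3 and 13.3 in HL-60 with diclofenac and 114.9 and 17 in HL-60 with DMSO. 200985_s_at had 189.2 and 130.1 in THP-1 with diclofenac and 172.9 and 38 in THP-1 with DMSO, and its HL-60 values were 5.3 and 3.4 with diclofenac and 8.1 and 3.4 with DMSO, none above background. Apart from THP-1 DMSO replicate 2, where 200985_s_at was not above background either, both probe sets were higher on every THP-1 array than on every HL-60 array. As a bound, 200985_s_at was at least 2.11-fold higher in THP-1 with diclofenac (adjusted p 0.0656). Its SD was 1.485 in THP-1 with DMSO, against 0.235 and 0.039 with diclofenac (THP-1, HL-60). The THP-1 DMSO spread enters that adjusted p. With DMSO no bound is given, since the arrays overlapped and the 95% interval of the log2 difference was -0.245 to 2.395 (adjusted p 0.269). Without THP-1 DMSO replicate 2 the fitted log2 differences were 1.93 with diclofenac and 2.13 with DMSO, with HL-60 not above background. The probe set 212463_at lay between 2 and 40 on all arrays, not above background, and is not read further.

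Diclofenac moved no CD59 probe set past the threshold. In THP-1, 200984_s_at differed by -0.67 ± 0.33 (adjusted p 0.489) and by -0.32 without THP-1 DMSO replicate 2. 200983_x_at gave -0.26 ± 0.45, or 0.04 without that array, and 200985_s_at gave 0.87 ± 0.58, or -0.19 without it. In HL-60, 200984_s_at differed by -0.04 ± 0.33, and no difference is given for 200983_x_at and 200985_s_at, which were above background on 1 and 0 HL-60 arrays. These 3 CD59 probe sets therefore had the same direction between the lines, but not under the drug in THP-1.

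**Figure D3:**
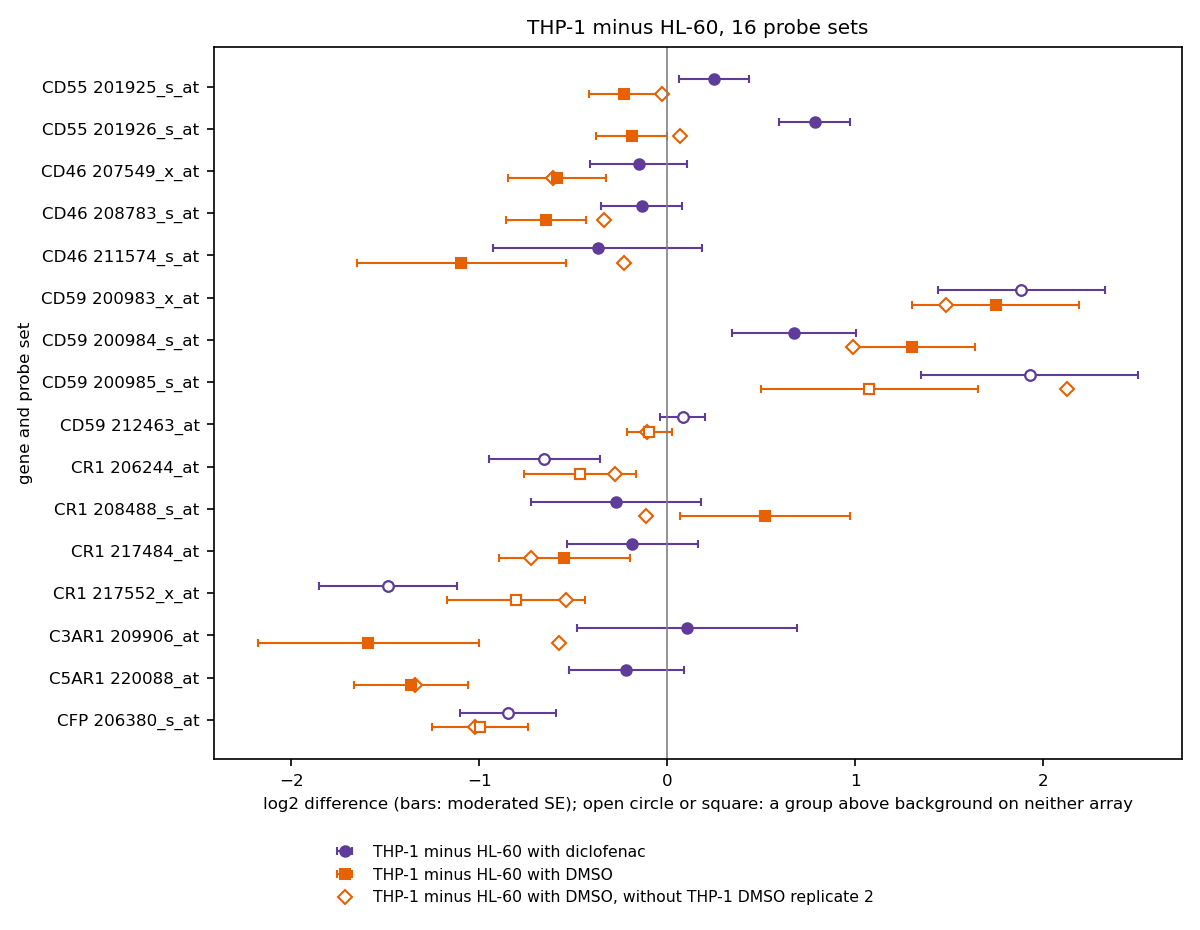
Log2 difference, THP-1 minus HL-60 (horizontal axis), of the 16 probe sets with diclofenac (circles) and with DMSO (squares), with moderated SE as bars; diamonds give the DMSO comparison without THP-1 DMSO replicate 2. Open circles and squares are fitted values with a group above background on neither array, such as CFP, whose size is not measured. CD59 200984_s_at lies at 0.68 with diclofenac and 1.31 with DMSO, and C5AR1 at -0.22 and -1.36.

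C5AR1 and C3AR1 are G protein-coupled receptors on myeloid cells, for C5a, a strong attractant of neutrophils and monocytes, and for C3a. C5AR1 (220088_at) had 338 and 225.2 in THP-1 with diclofenac, against 67.9 and 147.1 in THP-1 with DMSO. In HL-60 it had 280.4 and 404.4 with diclofenac, against 287.3 and 278.7 with DMSO. THP-1 with DMSO held the lowest arrays, its replicate 2 was not above that array's background, and the other 3 groups overlapped. Normalized levels were 8.426 ± 0.306 and 7.003 ± 0.093 in THP-1 (diclofenac, DMSO) and 8.642 ± 0.336 and 8.367 ± 0.069 in HL-60 (SD, n = 2 each).

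The diclofenac difference of C5AR1 in THP-1 was 1.42 ± 0.30 (2.68-fold), with an adjusted p of 0.183. It was 1.40 without THP-1 DMSO replicate 2, so its size did not rest on the array that stands apart, and 1.48 without replicate 1. In HL-60 the difference was 0.28 ± 0.30 (adjusted p 1), and the difference between the responses was 1.15 ± 0.43 (95% interval 0.16 to 2.13, adjusted p 0.653; 1.12 without THP-1 DMSO replicate 2). With DMSO, C5AR1 was lower in THP-1 than in HL-60, with a log2 difference of -1.36 ± 0.30 (0.389-fold, adjusted p 0.0178), and without THP-1 DMSO replicate 2 the difference was -1.34 (adjusted p 0.0201). It was not past the threshold without HL-60 DMSO replicate 1 or 2 (adjusted p 0.0974 and 0.114). With diclofenac the lines differed by -0.22 ± 0.30 (95% interval -0.91 to 0.48, adjusted p 0.823).

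C3AR1 (209906_at) had 344.6 and 268.5 in THP-1 with diclofenac, against 163.5 and 32.5 in THP-1 with DMSO. HL-60 had 235.7 and 336.1 with diclofenac, against 330.4 and 277.9 with DMSO. The order was like that of C5AR1: THP-1 with DMSO was lowest and the other 3 groups overlapped, at normalized levels of 8.54 ± 0.18 in THP-1 with diclofenac, 6.87 ± 1.48 in THP-1 with DMSO, 8.43 ± 0.33 in HL-60 with diclofenac and 8.46 ± 0.06 in HL-60 with DMSO (SD, n = 2 each). The low value of 32.5 came from THP-1 DMSO replicate 2 and was not above its background. The THP-1 difference of 1.67 ± 0.59 (adjusted p 0.401) was 0.66 without that array and 2.72 without replicate 1. In HL-60 it was -0.03 ± 0.59, or 0.07 under median centring. The responses differed by 1.70 ± 0.83 (adjusted p 0.733), and by 0.69 without that array. With DMSO the line difference was -1.59 ± 0.59 (adjusted p 0.115), and -0.58 without it.

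Monocyte markers were read beside these receptors. Their median THP-1 difference with diclofenac was 0.235, against -0.013 over all genes, with 7 of 9 above 0. CD14, a co-receptor for bacterial lipopolysaccharide, had 332.9 and 310.5 in THP-1 with diclofenac, 55.6 and 45.2 in THP-1 with DMSO, 3.2 and 28.9 in HL-60 with diclofenac and 6.7 and 4.1 in HL-60 with DMSO. Its THP-1 difference was 2.18 ± 0.40 (adjusted p 0.122). The value of 45.2 came from THP-1 DMSO replicate 2 and was not above that array's background, so this size is uncertain. Unlike both receptors, CD14 was above background on no HL-60 array. Of the 9 monocyte markers measured, 0 passed the threshold for diclofenac in THP-1, where 0.167% of all genes did, and 1 had an unadjusted p under 0.05. The summed level of the list was 18474.8 to 18539.8 and 12277.4 to 17827.9 in THP-1 (diclofenac, DMSO) and 13124.6 to 21042.1 and 14762.1 to 14933.2 in HL-60. The part of these markers in the receptor differences was not tested.

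CFP, properdin, binds the alternative pathway convertase and prolongs its life. Its probe set 206380_s_at had 18.4 and 9.6 in THP-1 with diclofenac, 9.3 and 58.1 in THP-1 with DMSO, 57 and 61.6 in HL-60 with diclofenac and 79.4 and 86.4 in HL-60 with DMSO. It was above background on all 4 HL-60 arrays and on no THP-1 array. With DMSO it was at least 1.02-fold lower in THP-1 (adjusted p 0.0325), and with diclofenac at least 1.20-fold lower (adjusted p 0.068). The DMSO call was kept without THP-1 DMSO replicate 2 (adjusted p 0.037). The CFP call was lost without any one of the 4 HL-60 or the 2 THP-1 diclofenac arrays (adjusted p 0.055 to 0.153), and on the deposited scale (adjusted p 0.347). Diclofenac gave -0.10 ± 0.26 in HL-60. In THP-1 no fold is given, since neither group was above background.

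Across the members, 3 of 16 passed the threshold between the lines with diclofenac: CD55 201926_s_at and CD59 200983_x_at higher in THP-1, and CR1 217552_x_at lower. Of all probe sets, 13% passed, made up of 6.76% higher and 6.26% lower. With DMSO 4 of 16 passed: 2 CD59 probe sets higher in THP-1, and C5AR1 and CFP lower. Here 15.3% of all probe sets passed, 7.56% higher and 7.72% lower. Arrays of the lines did not overlap for 5 higher and 4 lower members with diclofenac, where 28.5% and 30.4% of all probe sets were so placed, and for 2 higher and 9 lower with DMSO, where the shares were 24.7% and 24.8%. The median line difference of the members was -0.14 with diclofenac and -0.50 with DMSO, against -0.01 and 0.03 over all probe sets. Both line comparisons and both diclofenac comparisons use the same 8 arrays, so a low THP-1 DMSO level lowers the line difference with DMSO and raises the THP-1 diclofenac difference together. Without THP-1 DMSO replicate 1 the members' median was -0.142 with diclofenac and -0.51 with DMSO. Without replicate 2 it was -0.15 and -0.255. The number of calls rose without replicate 1, over the members and over all probe sets alike.

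Among 47 other complement genes, 38 were measured and 30 were above background on at least 1 array. None passed the threshold for diclofenac: limma called 0 of 38 in THP-1, where an unadjusted p under 0.05 was reached by 4 higher and 2 lower, and 0 of 38 in HL-60, where it was reached by 2 higher and 1 lower. Over all genes, each by 1 probe set, 0.167% passed in THP-1 and 0.00836% in HL-60. The list median was 0.00 in THP-1 and 0.05 in HL-60, against -0.01 and 0.00 over all genes, so the list as a whole lay near the rest. The THP-1 median was 0.028 without THP-1 DMSO replicate 1 and 0.074 without replicate 2. Calls for diclofenac in THP-1 appeared without replicate 1, in this list as widely over all probe sets. Closest to the threshold in THP-1 was THBD (thrombomodulin), with 2745.5 and 2779.5 with diclofenac, against 1848.5 and 1511.8 with DMSO. Its difference was 0.585 ± 0.117 (adjusted p 0.154), and 0.532 ± 0.117 in HL-60 (adjusted p 0.62). The widest THP-1 differences moved to different extents when the array that stands apart was left out. MASP1, a protease of the lectin pathway, gave -1.32 ± 0.73, or 0.03 without that array, and FCN2, a lectin that starts that pathway, gave -1.16 ± 0.50, or -0.68 without it. C4BPA, which binds C4b as a fluid-phase inhibitor, gave 1.21 ± 0.51 (adjusted p 0.462), or 0.90 without it. CFI is the protease for which CD46 and CR1 act as cofactors. It had 35.1 and 18.5 with diclofenac, neither above background, against 53.1 and 322.2 with DMSO (adjusted p 0.416). The high value was from that array, and the adjusted p was 0.651 without it.

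In HL-60 the complement gene closest to the threshold was CFD, factor D, the protease that cuts factor B in the alternative pathway. It had 1117.5 and 1181.6 with diclofenac, against 680 and 647.3 with DMSO, a difference of 0.74 ± 0.10 (adjusted p 0.142, and 0.0488 with THP-1 DMSO replicate 1 left out of the common spread). Both diclofenac arrays were higher. CFB, the factor B gene, was above background on no HL-60 diclofenac array and was at least 1.43-fold lower (adjusted p 1). C6, a part of the membrane attack complex, gave 0.65 ± 0.47 and C4BPA -0.54 ± 0.51.

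Between the lines, 2 of the 38 other complement genes were higher and 2 lower in THP-1 with diclofenac, and 4 were higher and 3 lower with DMSO, where 16% and 18.6% of all genes passed. The list median was 0.016 with diclofenac and 0.017 with DMSO, against -0.004 and 0.029 over all genes. It was 0.016 and -0.046 without THP-1 DMSO replicate 1, and 0.016 and -0.008 without replicate 2. More genes were called without replicate 1, as were more of all probe sets. CFD had 2775.9 and 2757 in THP-1 with diclofenac and 2439.3 and 1915.2 in THP-1 with DMSO, and was higher than in HL-60 by 1.20 ± 0.10 with diclofenac (adjusted p 0.000139) and 1.72 ± 0.10 with DMSO (adjusted p 2.05e-05). THBD, thrombomodulin, which also restrains complement on cell surfaces, was higher by 1.81 ± 0.12 (adjusted p 3.36e-05) and 1.75 ± 0.12 (adjusted p 3.28e-05). With DMSO these were 1.77 and 1.83 without THP-1 DMSO replicate 2. The CFD and THBD calls were kept whichever of the 8 arrays was left out. With DMSO, CD93, a receptor named for binding C1q, was higher by 0.92 ± 0.26 (adjusted p 0.0441) and CFI was called higher (adjusted p 0.0477). Both calls were lost without any one of 7 arrays, all but THP-1 DMSO replicate 1. With the array that stands apart left out, CD93 was at 0.65 (adjusted p 0.121) and CFI had an adjusted p of 0.087.

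Lower in THP-1 were FCN1, a ficolin of the lectin pathway made by monocytes, and C1QA, a chain of C1q. FCN1 had log2 differences of -2.43 ± 0.52 with diclofenac (adjusted p 0.0153) and -2.09 ± 0.52 with DMSO (adjusted p 0.0269, and -2.99 without THP-1 DMSO replicate 2). Its THP-1 values were 44.9 and 31.5 with diclofenac and 10.1 and 269.7 with DMSO, the last on THP-1 DMSO replicate 2. Only 1 array in each THP-1 group was above background, so these sizes are uncertain. C1QA was above background on no THP-1 array. C1QA was at least 1.82-fold lower with diclofenac (adjusted p 0.0152) and at least 1.19-fold lower with DMSO (adjusted p 0.0277, or 0.0391 without that array). CLU, clusterin, which binds the forming attack complex, was lower with DMSO, at -2.09 ± 0.41 (adjusted p 0.00988; -1.54 without that array), and its difference with diclofenac was -1.22 ± 0.41 (adjusted p 0.0975). The FCN1 calls were lost without any one of 4 arrays with diclofenac and 6 with DMSO, those of C1QA without 3 and 4, and that of CLU without either HL-60 DMSO array.

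**Figure D4:**
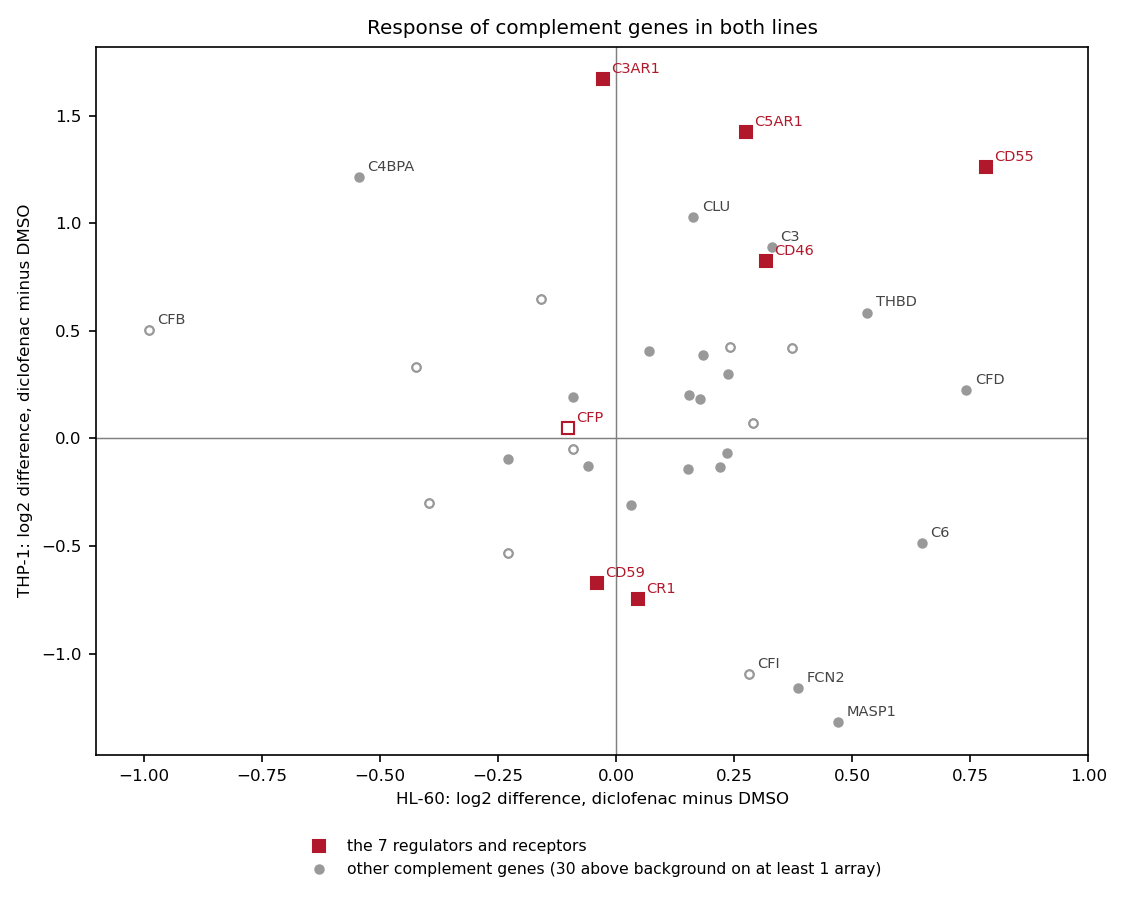
Log2 difference, diclofenac minus DMSO, in THP-1 (vertical axis) against HL-60 (horizontal axis), 1 probe set per gene, for the 7 regulators and receptors (squares) and the 30 other complement genes above background on at least 1 array (circles); open symbols are fitted values with a group above background on neither array in at least 1 line. CD55 lies high on both axes, C5AR1 and C3AR1 high on the THP-1 axis, and the other complement genes lie on all sides of 0.

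CD55 and CD59 need a GPI anchor to reach the surface. Of 28 anchor genes 22 were measured, and diclofenac moved 0 of 22 past the threshold in either line, with 0 at an unadjusted p under 0.05 in HL-60 and 1 in THP-1. That gene was PIGK, the protease subunit of the transamidase that attaches the anchor. It had 738 and 794 in THP-1 with diclofenac, against 398.6 and 388.5 with DMSO, a difference of 1.02 ± 0.19 (adjusted p 0.131), or 0.79 without THP-1 DMSO replicate 2. With DMSO, PIGK was lower in THP-1 than in HL-60, at -0.999 ± 0.194 (adjusted p 0.00941; -0.78 without that array). PIGA, of the enzyme that starts the anchor, was also lower, at -1.82 ± 0.45 (adjusted p 0.0281, and -1.09 without THP-1 DMSO replicate 2), as was PIGF, at -0.94 ± 0.20 (adjusted p 0.0164, and -0.63 without it). PIGP was higher by 0.97 ± 0.20 (adjusted p 0.0118, and 0.74 without it). With diclofenac PIGB was higher by 0.77 ± 0.19 (adjusted p 0.0267) and PIGF lower, at -0.82 ± 0.20 (adjusted p 0.0321). Each of these anchor gene calls was lost without at least 1 of the 8 arrays. The anchor gene median for diclofenac in THP-1 was 0.118, against -0.013 over all genes. It was 0.244 without THP-1 DMSO replicate 1 and -0.008 without replicate 2. Calls for diclofenac in THP-1 appeared without replicate 1, as they did widely over all probe sets. Between the lines, 1 anchor gene was called higher and 1 lower of 22 with diclofenac, and 1 higher and 3 lower with DMSO, where 16% and 18.6% of all genes passed.

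The genes with the most similar pattern over the 8 arrays were ranked by Pearson's r among 5717 genes above background on every array, as a description without a test. For CD55 these were SLC7A11, the cystine transporter (r = 0.964), CTBS (0.954) and POGK (0.939), and r was 0.952, 0.951 and 0.916 without THP-1 DMSO replicate 2. For CD46 they were ATP2B1 (0.956), RAPGEF2 (0.951) and REEP5 (0.947), which gave 0.852, 0.945 and 0.87 without it. CD59 was nearest to RGL2 (0.997), DNPH1 (0.991) and LSM12 (0.988). CR1 was nearest to RELA (0.984), OR1F1 (0.981) and EXTL2 (0.98), and without that array these came to 0.834, 0.892 and 0.872. The points share line, treatment and array. C3AR1, C5AR1 and CFP were not above background on all 8 arrays and were not ranked.

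Promoter sequences of all 7 genes, 12 windows in all, were read from RefSeq (build GRCh38.p14), from 250 bases before to 50 after each start, and searched on both strands for the AP-1 site TGANTCA, since the series names AP-1, and for the CRE site TGACGTCA. Neither motif contains the other. Of all 35116 promoters, 7.71% held the AP-1 letters and 1.85% the CRE letters. CD55, C5AR1 and C3AR1 are shown because they had the largest THP-1 differences, and 1 of the 4 CD59 windows because it held the most matches. Each reads from 5′ to 3′ on the gene's strand, with AP-1 matches in capitals.
CD55 promoter, chr1:207321428-207321727 (plus strand): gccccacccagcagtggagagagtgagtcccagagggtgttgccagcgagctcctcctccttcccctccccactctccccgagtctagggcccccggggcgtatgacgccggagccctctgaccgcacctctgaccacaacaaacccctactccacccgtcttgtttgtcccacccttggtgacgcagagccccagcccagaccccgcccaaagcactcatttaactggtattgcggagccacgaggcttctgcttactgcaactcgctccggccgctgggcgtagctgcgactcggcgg
C5AR1 promoter, chr19:47309611-47309910 (plus strand): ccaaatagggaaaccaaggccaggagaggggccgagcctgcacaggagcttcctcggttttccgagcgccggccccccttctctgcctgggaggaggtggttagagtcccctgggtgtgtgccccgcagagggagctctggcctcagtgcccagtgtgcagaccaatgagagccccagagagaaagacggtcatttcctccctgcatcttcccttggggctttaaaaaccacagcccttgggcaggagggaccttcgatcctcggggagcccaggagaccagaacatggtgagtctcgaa
C3AR1 promoter, chr12:8066310-8066609 (minus strand): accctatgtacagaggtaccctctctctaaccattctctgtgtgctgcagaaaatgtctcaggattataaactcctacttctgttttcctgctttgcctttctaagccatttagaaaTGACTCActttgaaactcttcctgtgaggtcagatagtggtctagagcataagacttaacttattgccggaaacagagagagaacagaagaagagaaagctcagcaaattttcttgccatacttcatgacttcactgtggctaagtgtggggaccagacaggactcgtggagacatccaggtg
CD59 promoter, chr11:33722678-33722977 (minus strand): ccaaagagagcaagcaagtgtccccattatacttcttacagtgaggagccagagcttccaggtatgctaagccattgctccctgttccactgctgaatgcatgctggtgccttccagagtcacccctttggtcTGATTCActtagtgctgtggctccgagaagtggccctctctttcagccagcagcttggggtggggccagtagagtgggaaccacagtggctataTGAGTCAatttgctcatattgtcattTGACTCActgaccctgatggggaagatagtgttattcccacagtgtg

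C3AR1 held 1 AP-1 match, TGACTCA, which begins at position -133 from the start. The CD59 window held 3, and the other 3 CD59 windows none. CD55, CD46, CR1, C5AR1 and CFP held none, and no member window held the CRE letters. A match describes letters only, not a bound site. In the RefSeq gene order of that build, CD55, CR2, CR1, CR1L and CD46 follow each other among the protein-coding genes of chromosome 1, with C4BPA and C4BPB before them, and C5AR1 is followed by C5AR2 on chromosome 19.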

How the data were processed

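The deposited intensity values of 8 arrays were used, 1 value per probe set and array on a linear scale from 0.1 to 39370.8. The software the authors used to make these intensities is not given in the sources used here. Groups and replicate numbers came from the sample labels. Values were turned to log2 of intensity plus 50. Array medians spanned 0.868 log2 units, over the allowed 0.5, and quantile normalization was applied. The 62 control probe sets were left out. Group means were fitted with limma 3.58.1 (R 4.3.3) on all 8 arrays with an intensity trend (4 residual and 4.411 prior degrees of freedom), without a replicate block, and p-values were adjusted over 22215 probe sets. The method was tested on simulated data.

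The array annotation gave 1 symbol for 19064 probe sets, several for 1043 and none for 2108, and only those with 1 were named. A gene stands for its brightest probe set, _x_at ones last. The rule for named genes took every member, list genes past the threshold, up to 4 further complement and 2 further anchor genes per comparison, and 3 most alike genes per member. The members and lists were chosen with earlier results of these data known. Where a group was above background on no array, the fold is given as a lower bound, which carries no sampling error, or left out. Alternatives were the deposited scale, median centring, an offset of 16, the dimmest 40% left out, no trend, a replicate block, each line alone and each array left out. Python 3.11.15 with matplotlib 3.10.9 drew the figures.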

Additional observations from a re-analysis of the deposited data

How the results depend on the processing

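With diclofenac in THP-1, 0 of 16 member probe sets passed the threshold as reported. The count was 2 on the deposited scale (both CD55 probe sets), and 1 (CD55 201925_s_at) with an offset of 16, with the dimmest 40% of probe sets left out and with the replicate block. The cause was not tested, except that fewer probe sets are tested when the dimmest are left out. Over all probe sets the THP-1 count was 30, and it was 51 on the deposited scale, 53 without the dimmest, 0 under median centring, 0 without the intensity trend and 1 with the THP-1 arrays alone. The HL-60 count over all was 1, and 0 to 5 under these settings. Median centring gave 1 member in place of 3 between the lines with diclofenac and 1 in place of 4 with DMSO, and calls over all probe sets of 1028 in place of 2892 and 1145 in place of 3396. With each array left out in turn, member counts ranged from 0 to 0 for diclofenac in HL-60, 0 to 9 in THP-1, 0 to 6 for the difference of responses, 0 to 6 between the lines with diclofenac and 0 to 9 with DMSO. All-probe counts ranged from 0 to 11, 0 to 6892, 0 to 4042, 1263 to 5103 and 1701 to 9089. Arrays with the same replicate number did not deviate together (correlation -0.008 for THP-1, -0.004 for HL-60), and the numbers were not read as pairs, and the block changed no other member count by over 1.5 times. Of the 80 member differences, no called one changed sign under any setting run. Of the uncalled ones 8 changed sign on the deposited scale, 3 with median centring and 3 to 6 with an array left out. In THP-1 the median of all probe sets was -0.205 and 0.149 under the first pair of settings, in place of -0.016. Low intensities limit CD59 212463_at, CD59 200985_s_at, CR1 206244_at, CR1 217552_x_at and CFP, which were above background on 4 arrays or fewer.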
